A study of Mus musculus with 6 samples.

Results

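The transcripts described here encode the enzymes of glycolysis and of glycogen metabolism, taken in the order of the pathway. A list of 32 genes was matched to the array through the array's annotation, and only probe sets annotated with exactly 1 gene symbol were taken. This gave 41 probe sets for 29 genes, among 12488 probe sets on each array. Eno1, Gpi1 and Pfkfb1 had no such probe set and were not analysed here. The list was not chosen from measured values of these arrays, although it was drawn up with earlier results of the same data known.

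Soleus, a calf muscle that holds posture and is rich in slow oxidative fibres, was the source of total RNA measured on Affymetrix mouse arrays, with 1 array per sample. The labels name 3 samples of male wild-type C57BL/6 mice and 3 of male BERKO mice, which lack estrogen receptor beta. They give neither the strain of the knockout nor the age of any mouse, and whether the samples are separate animals is not stated, so p-values cover only the variation among these 6 samples. Sample titles carry the same prefix on replicates 1 and 3 of each genotype and another on replicate 2. What the prefix marks is not stated. The Esr2 probe set, for the deleted receptor, read 2.2, 3.2 and 1.3 on the wild-type arrays and 8.4, 3.9 and 6.2 on the knockout arrays, around or below the floor of 7.8 used for all values. The genotype could therefore not be read from the targeted gene.

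Glycolysis splits glucose into pyruvate in the cytosol and yields ATP without oxygen, and lactate dehydrogenase turns pyruvate into lactate. Muscle also keeps glucose as glycogen, which glycogen phosphorylase opens during contraction and glycogen synthase rebuilds at rest. Several steps have a form found mainly in muscle, such as Pfkm, Pgam2, Eno3 and Pygm, beside forms of other tissues, such as Pfkl and Pgam1. Soleus has a lower glycolytic capacity than fast muscles, and its fibres rely mostly on mitochondria.

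Sequence upstream of the start of transcription is shown for both phosphoglycerate mutases. The muscle gene and the ubiquitous gene differ there in motifs known to bind muscle transcription factors. The ratio of this pair was the only one of 4 tested whose groups did not overlap (exact permutation p = 0.1, adjusted over the ratios 0.4). The log2 difference, knockout minus wild type, was 0.024 for Pgam2 and -0.42 for Pgam1. Any part of the motifs in that ratio was not tested. Both sequences are from RefSeq on GRCm38.p6 and run 5′ to 3′ over the 250 bases before the start. E-boxes (CANNTG, which myogenic factors bind) and the MEF2 site are in capitals. Pgam2 lies at chr11:5803797-5804046 on the minus strand, and Pgam1 at chr19:41911621-41911870 on the plus strand.
Pgam2: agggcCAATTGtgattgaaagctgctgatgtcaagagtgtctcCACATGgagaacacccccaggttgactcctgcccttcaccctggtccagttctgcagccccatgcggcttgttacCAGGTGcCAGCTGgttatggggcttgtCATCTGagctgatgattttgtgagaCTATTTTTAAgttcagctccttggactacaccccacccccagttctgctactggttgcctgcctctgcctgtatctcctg
Pgam1: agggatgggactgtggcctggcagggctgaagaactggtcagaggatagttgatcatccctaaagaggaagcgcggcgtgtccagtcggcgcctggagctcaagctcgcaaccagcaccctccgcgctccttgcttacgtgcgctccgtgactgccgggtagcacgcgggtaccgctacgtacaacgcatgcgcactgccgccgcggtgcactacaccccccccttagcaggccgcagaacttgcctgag
The Pgam2 window held 5 E-boxes and 1 match to the MEF2 site, which begins 80 bases before the start, and had a GC content of 53.2%. The Pgam1 window held 0 E-boxes and 0 MEF2 matches, and its GC content was 64.0%. Other pairs did not all differ in this way. The Pfkl window held 3 E-boxes, and the Pfkm windows held 3, 0, 1 and 1. Both Ldha windows held 2 and the Ldhb window 0. None of these windows held a MEF2 match.

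Motifs were searched on both strands in the same window of all 32851 promoters of the table. Of these, 66.2% held an E-box and 2.92% a MEF2 site. Among 47 promoters of 31 of the 32 listed genes the shares were 70.2% and 4.26%, and the only genes with a MEF2 match were Pgam2 and Pfkfb1. The core ACGTG of hypoxia response elements, which can overlap an E-box, stood in 31.9% of the enzyme promoters and 16.6% of all promoters. The 13 genes with it were Aldoa, Fbp2, Gpd2, Hk2, Ldha, Pfkm, Pgam1, Pgk1, Pgm1, Pgm2, Pkm, Pygm and Ugp2. The GC box GGGCGG was also more frequent, in 46.8% of the enzyme promoters and 32.7% of all. The full estrogen response element, an inverted repeat of the core GGTCA with a spacer of 3 bases, was in 0 of the 47 promoters and in 0.0639% of all promoters. The core alone stood in 42.6% of the enzyme promoters and 35.2% of all. Windows of the same gene can overlap, as for Aldoa and Pfkm, so a motif can be counted more than once. Differences between these shares were not tested. These matches describe the letters of a short window and are not binding sites measured in this muscle.

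Signals are given as deposited, in arbitrary units on a linear scale. Probe sets bind with different affinity, so levels are compared between samples and never between genes. A probe set was tested where 3 or more of the 6 arrays gave a signal over 39.4, the median of all values. Of the 29 genes, 23 were tested, with 26 probe sets. Gapdh was measured only by 6 control probe sets, which were kept out of the fit. Pfkp, Aldoc, Phkb, Pgm2 and Fbp2 did not exceed 39.4 on enough arrays, so the counts that follow say nothing of them. Where a gene had several probe sets, the one with the highest mean stands for it.

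**Figure D1:**
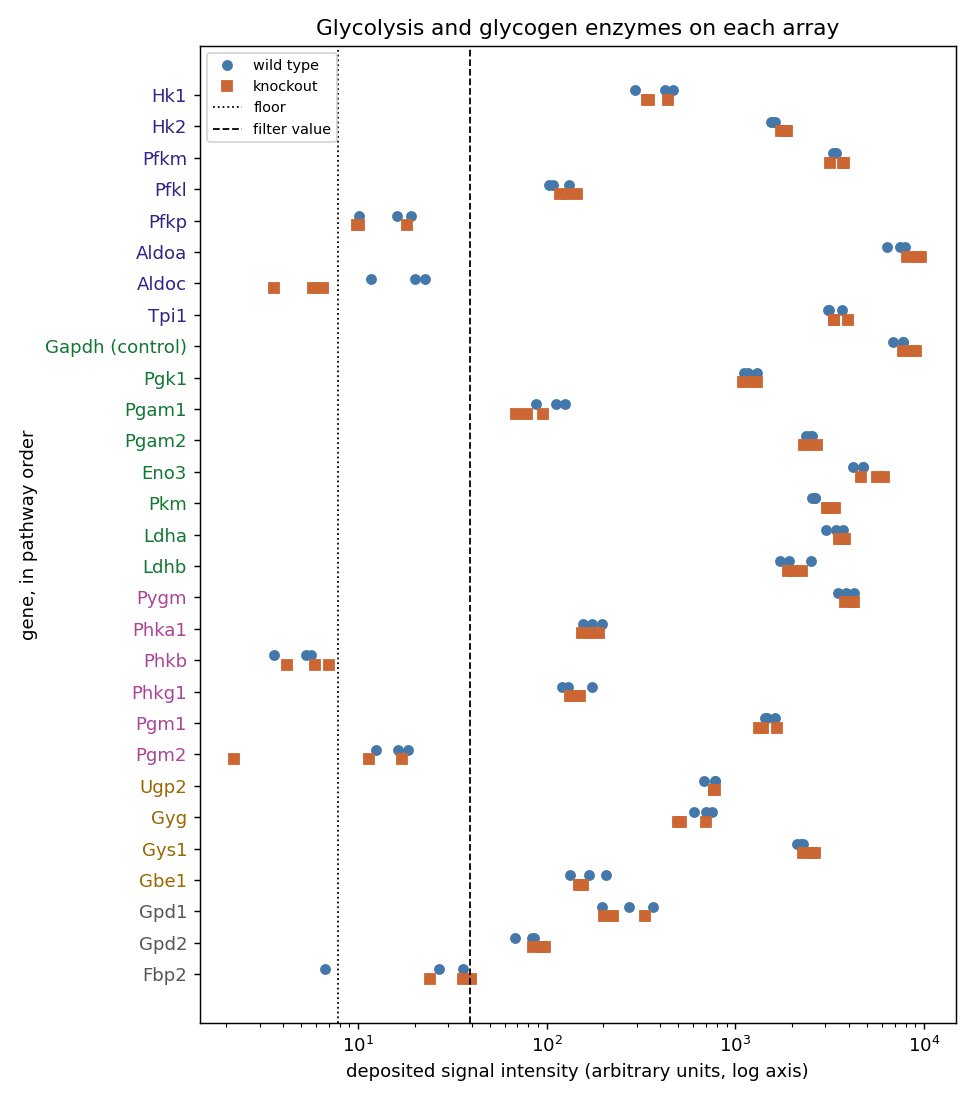
Deposited signal intensity on a log axis for 28 enzyme genes and the 3′ Gapdh control, in pathway order, with circles for the 3 wild-type arrays and squares for the 3 knockout arrays. The dotted line is the floor of 7.8 and the dashed line the filter value of 39.4. Squares lie wholly to the right of circles for Hk2, Aldoa, Gapdh, Pkm and Gys1, and wholly to the left for Aldoc, which is below the filter.

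In no enzyme gene did the genotypes differ by more than the test across all probe sets allows. With limma, 0 of the 23 genes passed an adjusted p of 0.05, where the share over all 6369 probe sets was 0.00%, and their adjusted p-values ran from 0.923 to 0.997. At an unadjusted p under 0.05 there were 4 genes, Pkm, Aldoa, Hk2 and Eno3, all with the higher signal in the knockout. Of all 4921 genes tested, 5.24% met that threshold. All 4 enzyme genes had mean signals over 1000, where 44 of 239 genes tested met it. After quantile normalization or cyclic loess 0 enzyme genes met it, and 1 did without the intensity trend (Pkm) or with the probe sets of a gene averaged (Hk2). Without wild-type replicate 1 it was met by Aldoa, Pkm and Pgam1, and without knockout replicate 1 by these and Hk2. Pgam1 was lower in the knockout. With no filter it was met by Hk2, Pkm and Aldoc, the last lower in the knockout and otherwise below the filter. It was met by 2 genes, Aldoa and Pkm, without wild-type replicate 2, wild-type replicate 3 or knockout replicate 3. With array weights 6 genes met it, adding Gyg, which was lower in the knockout, and Gys1. It was met by 5 genes with a common median, with the title prefix as a block, over the 4 arrays sharing a prefix, or without knockout replicate 2. The groups did not overlap for 4 genes, Hk2, Aldoa, Pkm and Gys1, again with the knockout higher. Over all genes tested, 10.7% did not overlap, and 5.55% did so with the knockout higher. Of the 23 genes, 16 had a difference above 0, with a median log2 difference of 0.05, but after quantile normalization or cyclic loess only 9 did and the median was -0.031 and -0.033. Over all genes tested, 47.5% had a difference above 0 and the median was -0.012.

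The bright enzyme genes had a difference above 0 more often than the dimmer ones. The 13 enzyme genes with a mean signal over 1000, a value chosen after the data were seen, had a median log2 difference of 0.10, and 12 of them were above 0. All 239 tested genes over that signal had a median of 0.12, and 80.3% were above 0. Groups that did not overlap, with the knockout higher, made up 24.3% of those 239 genes, and 4 of the 13 enzyme genes. The 10 dimmer enzyme genes had a median of -0.043, with 4 above 0, against a median of -0.019 in all 4682 dimmer genes. Bright enzyme genes thus lay near the other bright genes of the same arrays. The part of signal level in the differences was not tested.

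**Figure D2:**
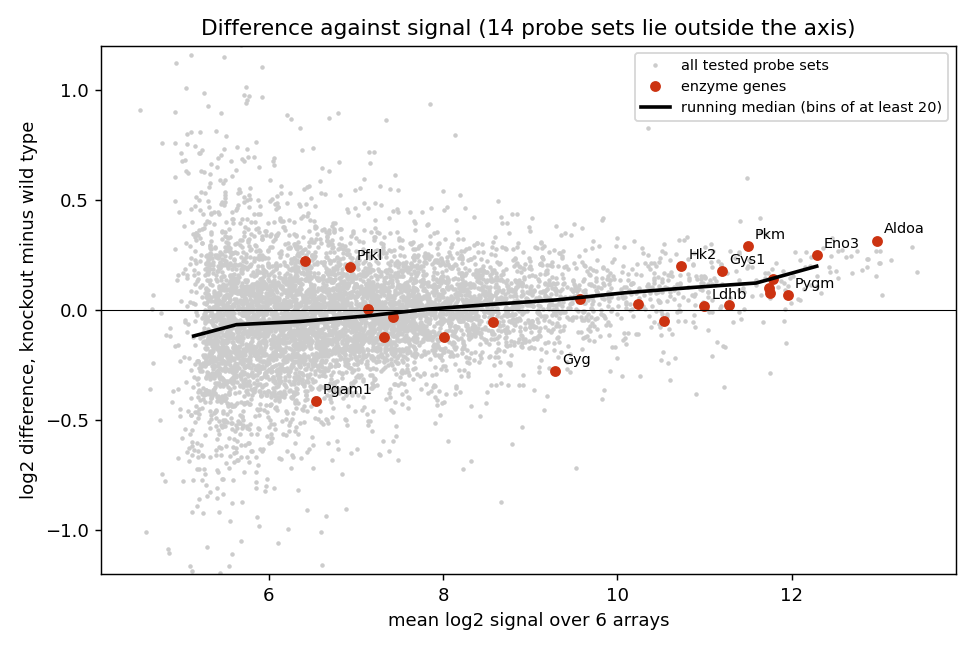
Log2 difference, knockout minus wild type, against the mean log2 signal of all tested probe sets (grey), with the enzyme genes in red and the running median in black. The running median passes from below 0 at dim probe sets to above 0 at bright ones, and most bright enzyme genes lie close to it.

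Most markers of muscle had differences above 0, as the bright enzymes did. All 4 markers of striated muscle, Acta1, Ckm, Mb and Des, had a difference above 0. Their summed signal was 17376 to 21597 in wild type and 21801 to 24588 in the knockout, without overlap. Most of that sum was Acta1 and Mb, which did not overlap, while Ckm and Des overlapped. Acta1, Mb and Ckm had mean signals over 1000, where 80.3% of all tested genes were above 0 and 24.3% lay wholly higher. Of 10 fast fibre markers 7 were above 0, with sums of 34911 to 40624 and 39890 to 41003. Of 8 slow fibre markers 6 were above 0, with sums of 44434 to 57102 and 54209 to 61919, and Myl3 was wholly higher in the knockout. The fast fibre markers below 0 were Myh4, Actn3 and Pvalb, all with overlap. In each of these the knockout array was below the wild-type array with the adjacent title number. Tnnt3, Tnni2, Myl1, Atp2a1 and Casq1 were wholly higher in the knockout, as were 5.55% of all genes tested. All of them but Tnni2 had mean signals over 1000, where that share was 24.3%. The fast heavy chain Myh4 read 499.4 to 3670.9 in wild type and 73.8 to 790.7 in the knockout, a log2 difference of -2.64. Its other probe set stood at -0.061. Actn3, the actinin of fast glycolytic fibres, stood at -1.48, and its other probe set, without overlap, at -1.16. Pvalb stood at -0.32, and its other probe set at -1.01. Outside the muscle lists, only Tek of endothelium did not overlap among the tested markers. Tek was wholly lower in the knockout, as were 5.14% of all genes tested. The summed markers of adipocytes (1 of 4 above 0), fibroblasts (3 of 5), endothelium (1 of 5), macrophages (3 of 4 tested), red blood cells (0 of 3) and Schwann cells (0 of 2) overlapped between the genotypes, and 0 of the markers on the array lay at the floor on all 6 arrays. The part of these markers in the enzyme values was not tested, and in whole muscle a change in the number of cells of a type cannot be told apart from a change in RNA per cell.

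Hexokinase, which traps glucose in the cell as its phosphate, has a form of insulin-responsive tissues, Hk2, and a widespread form, Hk1. Hk2 read 1554.4, 1621.3 and 1587.9 on the wild-type arrays and 1740.5, 1874.5 and 1854.9 on the knockout arrays. Every knockout array was above every wild-type array, with means of 1588 ± 33.5 and 1823 ± 72.4 (SD, n = 3 each), and the log2 difference was 0.20 ± 0.0846 (SE; limma adjusted p = 0.923). A further Hk2 probe set read at most 4.5 on any array and carries no level. Hk1 overlapped between the genotypes, at 395.6 ± 89.2 and 376.7 ± 53.6, with a log2 difference of -0.053.

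Phosphofructokinase commits sugar to glycolysis, and Pfkm is its muscle subunit. Pfkm read 3380.4, 3427.1 and 3286.5 on the wild-type arrays and 3185.7, 3711.4 and 3784.1 on the knockout arrays. Knockout replicate 1 was the lowest of the 6 arrays and the other knockout arrays were the highest, so the groups overlapped (log2 difference 0.078, 95% interval -0.12 to 0.28). The liver subunit Pfkl read 102.6, 108.5 and 131.6 on the wild-type arrays and 118.4, 145.1 and 128.1 on the knockout arrays, also with overlap, and its difference was 0.20 (-0.15 to 0.54). The platelet subunit Pfkp read 9.9 to 19.1 over the arrays, below the filter.

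Aldolase cleaves fructose bisphosphate into trioses, and Aldoa is the muscle form. Aldoa read 6406.5, 7984.7 and 7437.1 on the wild-type arrays and 9682.7, 8128.5 and 9309 on the knockout arrays. The groups did not overlap, but knockout replicate 2 was only just above wild-type replicate 2. The means were 7276 ± 801 and 9040 ± 811 (SD, n = 3 each), the log2 difference was 0.32 ± 0.101 (SE) and the limma adjusted p was 0.923. The other Aldoa probe set read 2814 ± 242 and 2822 ± 211, a difference of 0.0051. On each array the log2 ratio of the 2 probe sets was taken, and it went without overlap from a wild-type mean of 1.37 ± 0.277 to a knockout mean of 1.68 ± 0.0435 (exact permutation p = 0.1, the smallest that 3 against 3 allows; adjusted over the 3 genes with 2 tested probe sets, 0.2). Both probe sets carry the array's suffix for probes shared within a gene family, so their identity is less certain. Aldoc, the form of brain and other tissues, read 20.1, 22.5 and 11.7 on the wild-type arrays and 6.5, 3.6 and 5.8 on the knockout arrays, where all 3 values lay below the floor. Tpi1, which interconverts the trioses, read 3665.2, 3089 and 3158.3 on the wild-type arrays and 3343.9, 3356.5 and 3943.5 on the knockout arrays, and overlapped (difference 0.10).

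Gapdh, which oxidises the triose and makes the first reduced cofactor of the pathway, is read on this array by control probe sets along the transcript. The 3′ control read 6896.7, 7730.8 and 7718 on the wild-type arrays and 8541.6, 7792.3 and 9109.1 on the knockout arrays, so the groups did not overlap, with knockout replicate 2 only just above wild type. The ratio of knockout to wild-type means was 1.14 at the 3′ end, 1.24 in the middle and 1.22 at the 5′ end, with overlap in the middle and at the 5′ end. The exact permutation p was 0.1, 0.2 and 0.2. The 3 Gapdh controls for the opposite strand read 25.2 to 80.4. Pgk1, the kinase that makes the first ATP of the pathway, read 1196 ± 95.5 and 1220 ± 107 (SD, n = 3 each), with overlap and a log2 difference of 0.027.

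Phosphoglycerate mutase has a muscle form, Pgam2, and a widespread form, Pgam1, whose upstream sequences are printed above. Pgam2 read 2370.2, 2492.3 and 2541.7 on the wild-type arrays and 2719, 2318.5 and 2502.9 on the knockout arrays. The knockout held both the highest and the lowest array, and the difference was 0.024 (-0.18 to 0.23). Pgam1 read 87.6, 112 and 125.2 on the wild-type arrays and 95.9, 69.1 and 78.2 on the knockout arrays. Its knockout mean was lower, 81.1 ± 13.6 against 108.3 ± 19.1 (SD, n = 3 each), with overlap between knockout replicate 1 and wild-type replicate 1. Its log2 difference of -0.42 ± 0.19 (SE) was the lowest of the 23 tested genes (limma unadjusted p = 0.0554, adjusted p = 0.923).

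Enolase dehydrates phosphoglycerate, and Eno3 is the muscle form. Eno3 read 4750.7, 4228.8 and 4781.2 on the wild-type arrays and 5618.8, 4651.8 and 6170.9 on the knockout arrays. Knockout replicates 1 and 3 were above all wild-type arrays and replicate 2 was within their range. The means were 4587 ± 310 and 5480 ± 769 (SD, n = 3 each; log2 difference 0.25 ± 0.111, SE). That difference was 0.082 after quantile normalization, 0.10 after cyclic loess and 0.16 without knockout replicate 3. The widespread form Eno1 was not analysed here, so the planned ratio of the 2 forms could not be computed.

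Pyruvate kinase makes pyruvate and ATP, and its gene Pkm gave the smallest p among the enzymes. Pkm read 2547.4, 2650.9 and 2636.1 on the wild-type arrays and 3119.4, 3079.4 and 3384.4 on the knockout arrays. The wild-type arrays lay close together, all knockout arrays were above them, and the log2 difference was 0.29 ± 0.0802 (SE; limma unadjusted p = 0.00536, adjusted p = 0.923). The other Pkm probe set, which also carries the gene family suffix, read 1340 ± 173 and 1320 ± 223, a difference of -0.028. The log2 ratio of the 2 probe sets was 0.97 ± 0.211 and 1.29 ± 0.187 and overlapped (exact permutation p = 0.2, adjusted 0.2).

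Lactate dehydrogenase forms tetramers of an A subunit, common in fast muscle, and a B subunit, common in heart and slow muscle. Ldha read 3732.4, 3413.2 and 3019.7 on the wild-type arrays and 3822.1, 3548.3 and 3789.6 on the knockout arrays, and the groups overlapped (difference 0.14, -0.075 to 0.35). Ldhb read 1933.2, 1727.6 and 2517.3 on the wild-type arrays and 1914.4, 2018.3 and 2254 on the knockout arrays. Wild-type replicate 3 was the lowest array for Ldha and the highest for Ldhb, and the Ldhb difference was 0.017 (-0.30 to 0.33). A further Ldhb probe set read at most 8.8 and carries no level.

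**Figure D3:**
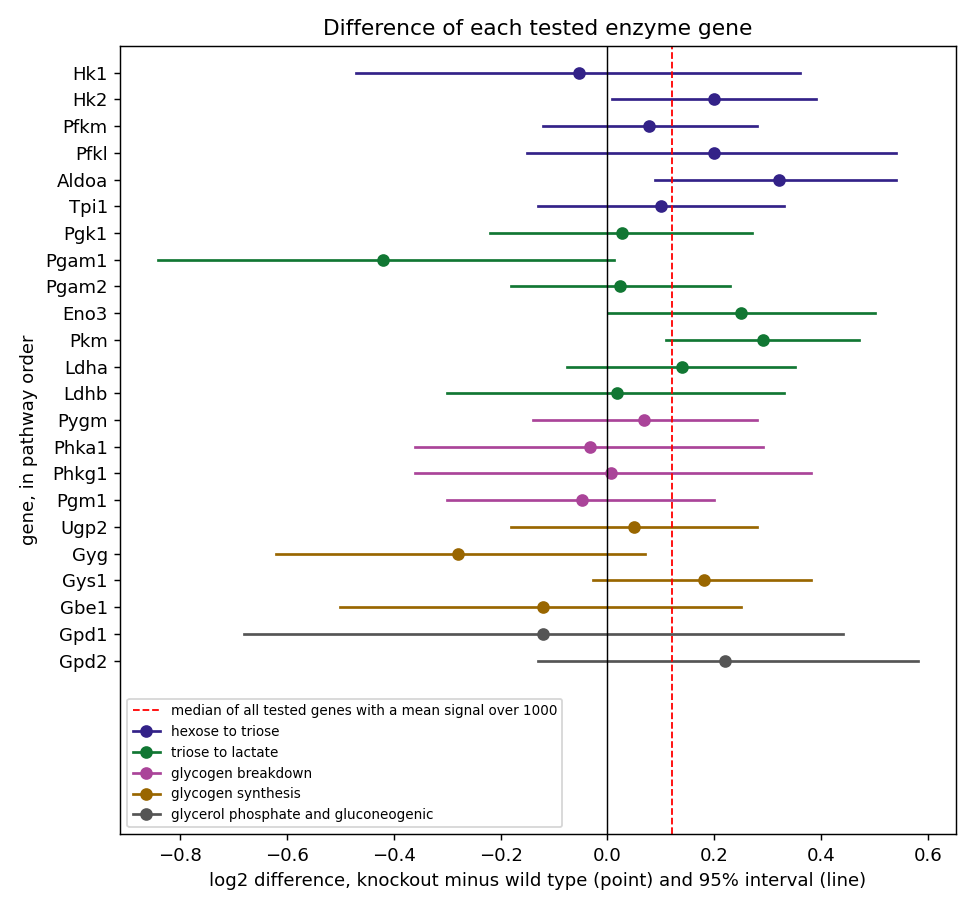
Log2 difference, knockout minus wild type, of the 23 tested enzyme genes in pathway order, with the 95% interval of the limma fit as a line and colour by part of the pathway. The red dashed line is the median of all tested genes with a mean signal over 1000, 0.12. The intervals of Pkm, Aldoa, Hk2 and Eno3 lie above 0, all of them holding 0.12, and none passed the adjusted threshold.

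Glycogen phosphorylase releases glucose phosphate from glycogen, and Pygm, its muscle form, read 3888.3, 3519.5 and 4264.9 on the wild-type arrays and 4241.6, 3814.9 and 4163.6 on the knockout arrays. The knockout arrays lay within the range of wild type, and the difference was 0.069 (-0.14 to 0.28). Phosphorylase kinase switches this enzyme on. Its muscle regulatory subunit Phka1 read 175 ± 20.9 and 170.9 ± 17.8, and its muscle catalytic subunit Phkg1 142.2 ± 28.8 and 141.2 ± 8.98 (SD, n = 3 each), both with overlap. The beta subunit probe set, Phkb, read 3.6 to 7 and lay below the floor on all 6 arrays. Pgm1, the mutase that links glycogen to glycolysis, read 1514 ± 99.0 and 1469 ± 175, a log2 difference of -0.048, and Pgm2 read 2.2 to 18.5. Of the 4 tested genes of glycogen breakdown, 2 were above 0 and their median was -0.013.

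Glycogen is built from UDP-glucose on a glycogenin primer. Gys1, the muscle glycogen synthase, read 2280.3, 2121.6 and 2236.1 on the wild-type arrays and 2561.7, 2290.5 and 2658.5 on the knockout arrays. The groups did not overlap, though knockout replicate 2 was only just above wild-type replicate 1. The means were 2213 ± 81.9 and 2504 ± 191, with a log2 difference of 0.18 ± 0.09 (SE; limma adjusted p = 0.926). Gyg, which encodes glycogenin, read 757.1, 606.9 and 696 on the wild-type arrays and 516.2, 703 and 496.7 on the knockout arrays. Knockout replicates 1 and 3 were the lowest arrays and replicate 2 the next to highest, for a difference of -0.28 ± 0.154 (SE). The other Gyg probe set gave 0.037, with means of 594.4 ± 39.8 and 609.5 ± 31.3, and the ratio of the 2 probe sets overlapped (exact permutation p = 0.2, adjusted 0.2). Ugp2, which makes UDP-glucose, and Gbe1, the branching enzyme, had differences of 0.05 and -0.12 with overlap.

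The remaining enzymes tie the pathway to glycerol and to glucose synthesis. Gpd2, the mitochondrial glycerol phosphate dehydrogenase, read 83.6, 86 and 68.1 on the wild-type arrays and 97.6, 85 and 94.1 on the knockout arrays, with overlap and a difference of 0.22 (-0.13 to 0.58). Its cytosolic partner Gpd1 spread widely, at 278.6 ± 85.4 and 253.9 ± 70.6 (SD, n = 3 each), and its difference of -0.12 had an interval of -0.68 to 0.44. The other Gpd1 probe set read 6.1 to 29.9, below the filter. Fbp2, the muscle fructose bisphosphatase, read 36, 26.8 and 6.7 on the wild-type arrays and 35.9, 39.5 and 24.1 on the knockout arrays, near or below the filter.

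The muscle isoforms and the other isoforms were set against each other as a ratio within each array, which cancels a scaling factor of the array. A shift of this ratio shows unequal change of the 2 transcripts and says nothing of their relative amount. The 5 muscle isoforms Pfkm, Pgam2, Eno3, Pygm and Ldha all had differences above 0, from 0.024 to 0.25, with a median of 0.078, but those of Pfkm, Pgam2 and Pygm lay below 0 after quantile normalization and cyclic loess. Of the 3 other isoforms tested, Pfkl and Ldhb were above 0 and Pgam1 below, with a median of 0.017, and Ldhb also lay below 0 after those scalings. Among all bright genes 80.3% were above 0, and the 5 muscle isoforms are all bright. Whether their differences come from signal level was not tested.

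The Pgam2 to Pgam1 ratio was the only one of 4 tested ratios whose groups did not overlap. On the log2 scale the wild-type arrays gave 4.76, 4.48 and 4.34 and the knockout arrays 4.83, 5.07 and 5.00. All knockout arrays were higher, by 0.44 on average, with means of 4.53 ± 0.212 and 4.96 ± 0.125 (SD, n = 3 each; exact two-sided permutation p = 0.1, the smallest this design allows, adjusted over the 4 ratios 0.4). After quantile normalization or cyclic loess, which move bright and dim probe sets differently, the shift was 0.28 (exact permutation p = 0.2). The Pfkm to Pfkl ratio was 4.89 ± 0.215 and 4.77 ± 0.105, a shift of -0.12 with overlap (exact permutation p = 0.5, adjusted 0.667). Its shift was -0.26 and -0.28 after those scalings and -0.025 over the 4 arrays that share a title prefix.

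The Ldha to Ldhb ratio read 0.95, 0.98 and 0.26 on the wild-type arrays and 1.00, 0.81 and 0.75 on the knockout arrays. Wild-type replicate 3 stood far below the other arrays, and the shift of 0.12 (exact permutation p = 0.8, adjusted 0.8) became -0.11 without it. The Hk2 to Hk1 ratio shifted by 0.25, from 2.03 ± 0.344 to 2.28 ± 0.165, with overlap (exact permutation p = 0.4, adjusted 0.667). It was 0.45 without wild-type replicate 3. The ratios with Pfkp and Aldoc in the denominator were not tested because those genes lie below the filter. The Pfkm to Pfkp ratio was 7.85 ± 0.504 and 8.19 ± 0.433 on the log2 scale, and no level is drawn from the ratio with Aldoc.

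**Figure D4:**
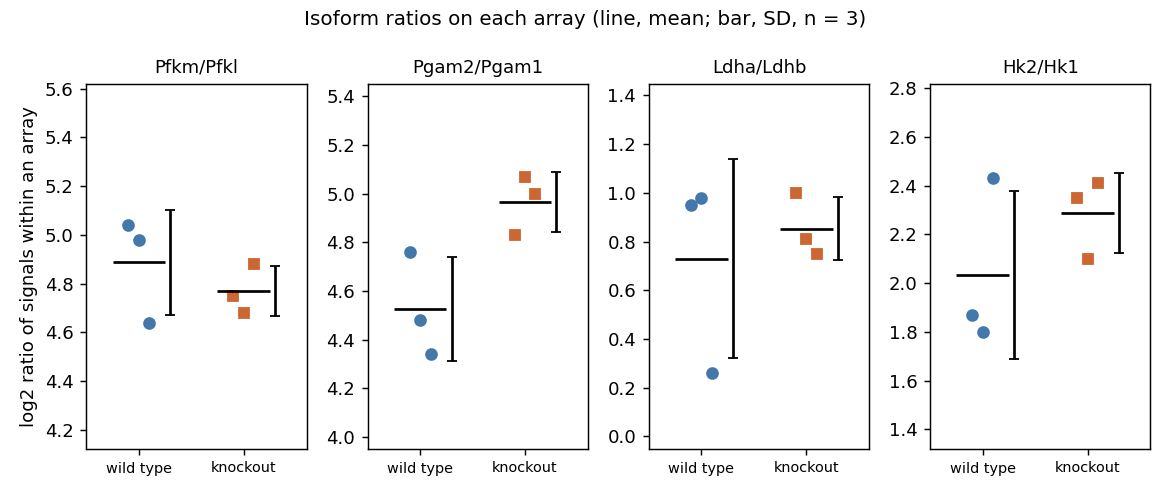
Log2 ratio of the signals of 2 isoforms on each array, with circles for wild type, squares for the knockout, a line at the mean and a bar for the SD (n = 3). Each panel spans the same height. Only the Pgam2 to Pgam1 panel shows groups that do not overlap, with wild type at 4.34 to 4.76 and the knockout at 4.83 to 5.07.

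Over these genes, in the deposited scaling, every knockout array lay above every wild-type array in its median deviation. The median deviation of the 23 genes from their own means was -0.027, -0.069 and -0.072 on the wild-type arrays and 0.033, -0.0032 and 0.10 on the knockout arrays, on the log2 scale. Knockout replicate 3 was the highest, with 16 of 23 genes above their mean, and wild-type replicate 2 had the fewest, 6 of 23. For the 239 bright genes the same deviations were -0.076, -0.061 and -0.031 on the wild-type arrays and 0.033, 0.081 and 0.077 on those of the knockout. Spread within a genotype differed between genes. Among bright enzymes the coefficient of variation in wild type ran from 2.11% for Hk2 to 19.9% for Ldhb, with a median of 6.76%, and in the knockout from 3.97% for Hk2 to 14.0% for Eno3, with a median of 8.44%. Among the dimmer enzymes Gpd1 varied most in both genotypes, by 30.7% and 27.8%.

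**Figure D5:**
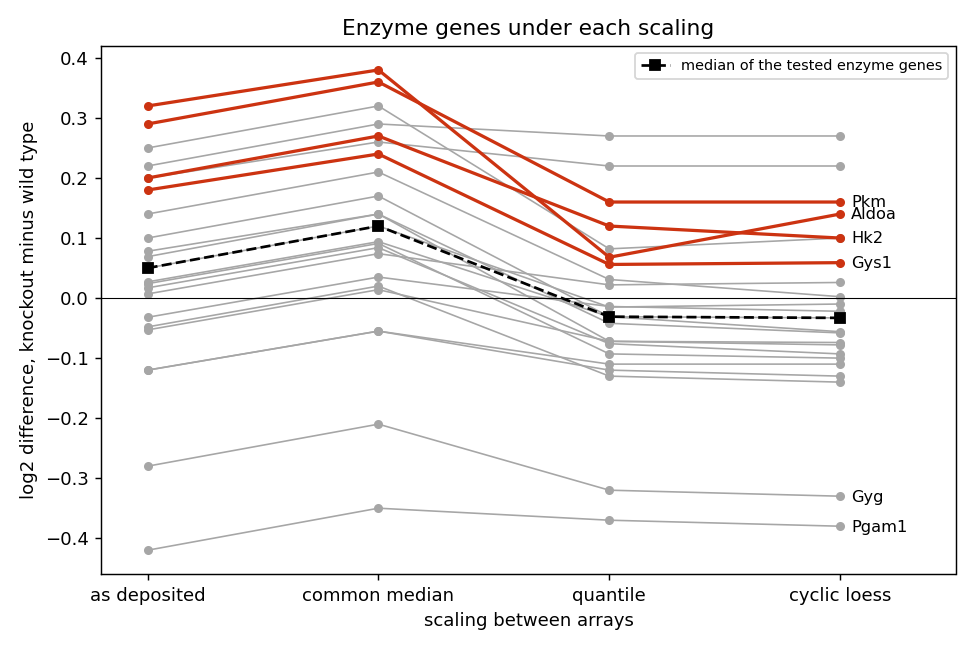
Log2 difference, knockout minus wild type, of each of the 23 tested enzyme genes under 4 ways of scaling the arrays, with Aldoa, Pkm, Hk2 and Gys1 in red and the median of the genes as black squares. The median is 0.05 as deposited, 0.12 with a common median, -0.031 after quantile normalization and -0.033 after cyclic loess.

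The sign of the median enzyme difference changed with the scaling of the arrays. Scaling to a common median gave 19 of 23 genes above 0 and a median of 0.12, where all genes tested had a median of 0.055 and the bright genes 0.19. After quantile normalization the bright genes had a median of 0.015 and after cyclic loess 0.0083. The differences of Pkm, Aldoa, Hk2 and Gys1 stayed above 0, at 0.16, 0.068, 0.12 and 0.056 after quantile normalization and 0.16, 0.14, 0.10 and 0.059 after cyclic loess. Averaging the probe sets of a gene gave 0.16 for Aldoa, 0.13 for Pkm and -0.12 for Gyg. Pgam1 stood at -0.37 and -0.38 after those scalings and at -0.35 with a common median, and Gyg at -0.32, -0.33 and -0.21.

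A further 38 genes of the pathway, fixed as a list for isoforms of other tissues, regulators and transporters, were read in the same fit. Of these, 22 had a probe set with 1 symbol and 14 were tested. In limma 0 passed an adjusted p of 0.05 and 0 had an unadjusted p under 0.05. Of the 14 tested, 4 were above 0 and 10 below, with a median of -0.14, and 52.5% of all genes tested were below 0. Apart from Gsk3a, a kinase of glycogen synthase, they had mean signals under 1000, where the median of all genes was -0.019.

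The groups did not overlap for 1 of the 14, Stbd1, which anchors glycogen to membranes, and 5.14% of all genes tested showed the knockout wholly lower. Stbd1 read 82.7, 63 and 65.2 on the wild-type arrays and 61.3, 45.5 and 45.4 on the knockout arrays, with knockout replicate 1 only just below wild type (log2 difference -0.47 ± 0.211, SE; limma unadjusted p = 0.0504, adjusted p = 0.923). Gaa, the lysosomal glucosidase that degrades glycogen, stood at 607.5 ± 79.1 and 516.6 ± 18.1 (SD, n = 3 each), a difference of -0.23. Pfkfb3, which makes the activator of phosphofructokinase, read 40.1, 71 and 104 on the wild-type arrays and 38.8, 53.7 and 40.4 on the knockout arrays. Wild type spread widely, and the difference of -0.60 had an interval of -1.36 to 0.15. Phkg2, the liver catalytic subunit of phosphorylase kinase, stood at -0.39 with overlap.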

How the data were processed

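Soleus RNA of 3 wild-type and 3 knockout samples was measured on Affymetrix arrays. The authors deposited 1 signal intensity per probe set and array on a linear scale; the software and its version are not given in the sources used here. With 2% of values trimmed at either end, the mean was 100.07 to 100.08 on each array, so the authors' scaling was kept, and array medians were 39.8 to 40.5 in wild type and 36.8 to 39.3 in the knockout.

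The array annotation named the genes, and RefSeq (GRCm38.p6) symbols matched for the enzyme genes. Of 12488 probe sets, 66 controls were left out. Values under the 20th percentile, 7.8, were set to that floor and taken to log2, and probe sets above 39.4 on 3 arrays were kept, which left 6369 for testing. Knockout minus wild type was fitted with limma 3.58.1 in R 4.3.3 (lmFit, eBayes with trend) as a two-sided test, and p-values were adjusted by Benjamini-Hochberg over these 6369. The median SE of a log2 difference was 0.179, and the number of arrays limits the precision. Isoform ratios were compared by exact two-sided permutation (scipy 1.17.1), where 3 against 3 cannot go below 0.1. The steps were tested on simulated data.

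Every listed enzyme is named. Values on each array are given for the isoforms contrasted, for genes whose groups do not overlap and for further genes with the smallest p. The members, lists and tests were chosen with earlier results of these data known, and the signal of 1000 after seeing the data. Replicate numbers follow the order of deposit. Deviations from the group means of samples with adjacent title numbers correlated at -0.0052, 0.035 and -0.0029 over the 6369 probe sets. The main fit took no pairs. A correlation over all probe sets cannot exclude pairing in single genes, and Myh4, Actn3, Pvalb and Eno3 ranked these samples alike in both genotypes. With adjacent title numbers as a block, Eno3 had a limma unadjusted p of 0.012 (adjusted p = 0.864). The alternatives covered scaling, floor, filter, variance model, array weights, blocks, the probe set used and leaving out each array.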

Additional observations from a re-analysis of the deposited data

How the results depend on the processing

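Under every alternative run for each list, 0 enzyme genes and 0 of the further pathway genes passed an adjusted p of 0.05 in limma (the further genes were not fitted with the probe sets of a gene averaged), with adjacent title numbers as a replicate block too (smallest adjusted p of an enzyme gene 0.864). That block changed no call of an enzyme gene and left the isoform ratio shifts at 0.44, -0.12, 0.12 and 0.25. The median of the enzyme genes was -0.031 after quantile normalization, -0.033 after cyclic loess and 0.12 with a common median, and the number above 0 was 9, 9 and 19. Leaving out each array gave medians of 0.025 (without knockout replicate 3) to 0.082 and 13 to 18 genes above 0. It gave ratio shifts of 0.35 to 0.55 for Pgam2 to Pgam1, -0.24 to -0.041 for Pfkm to Pfkl, -0.11 to 0.25 for Ldha to Ldhb and 0.14 to 0.45 for Hk2 to Hk1, and 0 passes in both gene lists.

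Of 321 differences of single genes under alternatives that keep each array or the 4 of a title prefix, 22 changed sign, and the causes were not tested. After quantile normalization they were Pfkm -0.042, Tpi1 -0.031, Pgk1 -0.031, Pgam2 -0.093, Ldhb -0.076, Pygm -0.072 and Ugp2 -0.015. After cyclic loess they were Pfkm -0.058, Tpi1 -0.033, Pgk1 -0.056, Pgam2 -0.10, Ldhb -0.093, Pygm -0.074 and Ugp2 -0.0099. With a common median they were Hk1 0.014, Phka1 0.035 and Pgm1 0.020, and with array weights Phkg1 -0.036. Over the 4 arrays sharing a title prefix they were Pgk1 -0.050, Ldhb -0.087, Phkg1 -0.041 and Gpd1 0.25. When 1 array was left out, 22 of 138 differences changed sign, in the ranges of Gbe1 -0.28 to 0.030, Gpd1 -0.35 to 0.10, Hk1 -0.25 to 0.078, Ldhb -0.10 to 0.17, Pgam2 -0.034 to 0.081, Pgk1 -0.024 to 0.10, Pgm1 -0.14 to 0.019, Phka1 -0.12 to 0.056, Phkg1 -0.10 to 0.17, Pygm -0.0011 to 0.14 and Ugp2 -0.011 to 0.082.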
